A study of Homo sapiens with 12 samples.

Results

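The 10 regulators of the integrated stress response described here were followed across the 4 groups of an RNA sequencing experiment on MDA-MB-231, a human line established from a triple-negative breast cancer. They were the rows with the symbols ATF4, ATF3, ATF5, DDIT3, CEBPB, CEBPG, TRIB3, CHAC1, PPP1R15A and GDF15, which made 10 of the 40929 gene symbols, and each was present in the 12 count tables. The groups of 3 libraries were LGCAR (5 mM glucose with 25 µM cariporide), LG (5 mM glucose without cariporide), CAR (10 mM glucose with 25 µM cariporide) and NG (10 mM glucose without cariporide). Cariporide is a small-molecule inhibitor of sodium-proton exchange. The cells of all groups were of 1 line labelled wild type, had been kept in RPMI with fetal bovine serum, and were harvested after 48 h. The labels do not state whether replicate libraries stem from different cultures, so p-values measure the spread between these libraries, which may be technical.

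The integrated stress response starts when a kinase such as PERK, GCN2, PKR or HRI phosphorylates the translation factor eIF2, which lowers protein synthesis in general while translation of the ATF4 message increases. ATF4 is a basic leucine zipper (bZIP) factor that pairs with other bZIP proteins, several of which are products of its own target genes, and switches on genes of amino acid supply, redox balance and, in prolonged stress, cell death. Because ATF4 is controlled largely at translation, its RNA level need not follow its protein level, which was not measured here.

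The libraries held 18069004 to 24837409 counts, and the 10 genes had between 156 counts (CHAC1 in LGCAR 2) and 7126 counts (ATF4 in CAR 1) in a library. Levels are given as CPM (counts scaled to a common library size after TMM normalization), and log2 fold changes, standard errors (SE) and p-values, adjusted by the method of Benjamini and Hochberg over 15104 tested genes, are those of the quasi-likelihood test of edgeR. A gene was called where the adjusted p was under 0.05, and all 10 regulators passed the filter on low counts. Cytosolic ribosomal RNA took 9.32% to 11.5% of the counts in LGCAR, 7.91% to 9.06% in LG, 7.10% to 8.53% in CAR and 7.83% to 11.2% in NG. LG 3 had the highest level of its group for 9 of the 10 regulators, while it was highest in LG for 40.3% of all tested genes. CAR 1 was the highest of its group for 8 of the 10, against 41.8% of all tested genes. Among markers of the cell line, VIM averaged 1676 CPM in LGCAR, 1802 CPM in LG, 1665 CPM in CAR and 1737 CPM in NG. The hormone receptor gene PGR and the T-cell gene CD3E had 0 counts in all libraries, and ESR1 had at most 4. Of 12 luminal, epithelial and other cell type markers 7 were tested. In LGCAR against NG 2 of the 7 were called higher (CDH1 and PDGFRB) and none lower, where 4.63% of all tested genes were called higher. In LGCAR against CAR 1 was called higher, where 0.973% of all tested genes were. The level summed over all 12 was 50.5 to 51.0 CPM in LGCAR and 48.4 to 53.6 CPM in LG. It was 43.7 to 47.5 CPM in CAR and 45.1 to 46.8 CPM in NG. The part of these markers in the results was not tested.

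With low glucose and cariporide together, most of the 10 regulators were lower. In LGCAR 6 of the 10 regulators (ATF4, ATF3, ATF5, TRIB3, CHAC1 and PPP1R15A) fell relative to NG and none rose, while 4.12% of all tested genes were called lower and 4.63% higher. The median log2 fold change of the 10 was -0.25, and that of all tested genes was 0.01. All 3 LGCAR libraries lay below all 3 NG libraries for 7 of the 10, an arrangement found in 17.5% of all tested genes, and above them for none (20.7%), while the other 3 (DDIT3, CEBPB and GDF15) overlapped. With low glucose alone, DDIT3 rose in LG against NG and no regulator fell, where 1.0% of all tested genes were called higher and 0.728% lower. All 3 LG libraries lay above all 3 NG libraries for DDIT3 and GDF15 (9.86% of all tested genes) and below them for ATF5 (9.51%). Cariporide at 10 mM glucose gave no call among the 10 and none among all genes (0%).

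**Figure D1:**
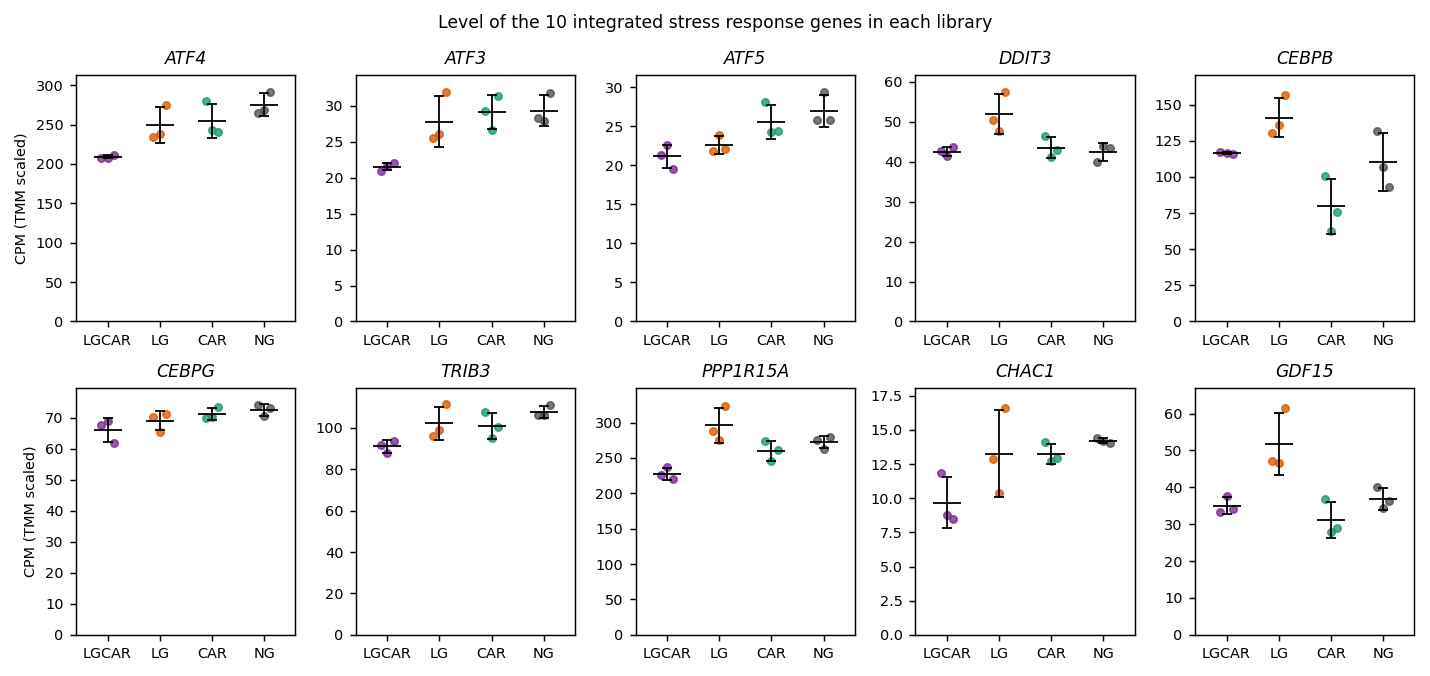
TMM-scaled CPM of the 10 genes in each of the 12 libraries (points), with the mean and SD of each group of 3 (bars), for LGCAR, LG, CAR and NG from left to right. ATF4 lay at 207.9 to 211.6 CPM in LGCAR, below each library of the other groups, while DDIT3 and GDF15 were highest in LG.

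The regulators differed widely in abundance. Per kilobase of exon, the mean level over the 12 libraries was 98.2 CPM for ATF4, 85.4 for PPP1R15A, 57.2 for CEBPB, 34.5 for DDIT3, 29.3 for TRIB3, 18.5 for GDF15, 15.8 for CEBPG, 8.15 for ATF5, 6.67 for ATF3 and 6.13 for CHAC1. ATF4 thereby stood at the 98.1 percentile of 13241 genes with an exon length, and CHAC1, the least abundant of the 10, at the 57.3 percentile.

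For 4 of the regulators the promoter held a match to a searched DNA pattern. These stretches are shown because they matched, whatever the level of the gene. The C/EBP-ATF response element is the composite site bound by ATF4 with a C/EBP partner, and TGATGCAA is its common form. TGATGNAA is a looser pattern with any base at N, and ATF3 matched only this looser pattern. The letters TGACGTCA are the cyclic AMP response element. Capitals mark the match, and each stretch is the plus strand of the GRCh38.p14 sequence from RefSeq, at chr19:33374045-33374104 for CEBPG, chr15:40953251-40953280 for CHAC1, chr1:212565190-212565249 for ATF3 and chr19:48872342-48872391 for PPP1R15A.
CEBPG: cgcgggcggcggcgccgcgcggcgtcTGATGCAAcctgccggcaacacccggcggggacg
CHAC1: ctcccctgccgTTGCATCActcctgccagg
ATF3: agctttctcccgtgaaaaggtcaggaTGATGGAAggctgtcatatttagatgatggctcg
PPP1R15A: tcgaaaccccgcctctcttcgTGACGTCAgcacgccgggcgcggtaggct
The match began 42 bases before an annotated start in CEBPG, 209 in CHAC1, where it reads TGATGCAA on the reverse strand and lies in an exon of a longer GENCODE 29 transcript, 191 in ATF3 and 58 in PPP1R15A. Both strands of the 250 bases before each annotated start were searched, all 10 regulators had at least 1 such window, and overlaps between motifs were allowed, so that each TGATGCAA is also a TGATGNAA. TGATGCAA was in 2 of the 10 regulators and in 0.967% of the 27305 genes with a window. TGATGNAA was in 3 of the 10 and in 3.89% of genes, and TGACGTCA in 1 of the 10 and in 2.03% of genes. A match is a description of letters, not a binding site, and of these 4 genes CHAC1, ATF3 and PPP1R15A were called lower in LGCAR than in NG while CEBPG was not called.

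ATF4, the transcription factor at the centre of the response, lies on chromosome 22 (GRCh38, GENCODE 29, 39519695 to 39522685, plus strand). Its level was 207.9, 207.9 and 211.6 CPM in LGCAR, 234.7, 237.4 and 275.4 CPM in LG, 279.7, 243.1 and 241.2 CPM in CAR, and 264.9, 268.6 and 291.5 CPM in NG. The 3 LGCAR libraries lay close together and below the 9 other libraries, whereas LG and CAR overlapped with NG. In LGCAR ATF4 fell relative to NG by 1.31-fold (log2 fold change -0.40, SE 0.0679, edgeR adjusted p = 0.00514). It also fell in LGCAR relative to CAR, by 1.22-fold (log2 fold change -0.28, SE 0.0679, edgeR adjusted p = 0.0448). The log2 fold changes of -0.14 in LG against NG (95% CI -0.29 to 0.00, edgeR adjusted p = 0.329) and -0.11 in CAR against NG (95% CI -0.25 to 0.03, edgeR adjusted p = 0.894) were not called. GENCODE 29 holds 4 entries named as pseudogenes of ATF4, with which its reads could have been shared in counting. In bulk RNA, fewer cells with a high level and less RNA in each cell cannot be told apart, here and for the genes that follow.

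ATF3, a bZIP factor of acute stress that acts mostly as a repressor, lies on chromosome 1 (212565334 to 212620777, plus strand). It was measured at 20.98, 21.68 and 22.02 CPM in LGCAR, 25.52, 26.05 and 31.88 CPM in LG, 29.32, 26.63 and 31.40 CPM in CAR, and 28.30, 27.90 and 31.79 CPM in NG. LGCAR was again below every library of the other groups, which overlapped among themselves. The log2 fold change was -0.45 in LGCAR against NG (SE 0.0887, edgeR adjusted p = 0.0101), or 1.36-fold lower, and -0.43 in LGCAR against CAR (SE 0.0881, edgeR adjusted p = 0.0210), or 1.35-fold lower. ATF3 did not differ detectably in LG against NG (log2 fold change -0.08, 95% CI -0.26 to 0.10, edgeR adjusted p = 0.724) or in CAR against NG (log2 fold change -0.01, 95% CI -0.19 to 0.17, edgeR adjusted p = 0.985).

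ATF5, a bZIP factor translated under stress in the same manner as ATF4 and linked to the mitochondrial stress response, lies on chromosome 19 (49928702 to 49933935, plus strand). LGCAR held 21.32, 22.57 and 19.57 CPM, LG 21.80, 23.92 and 22.13 CPM, CAR 28.10, 24.24 and 24.36 CPM, and NG 25.84, 29.35 and 25.80 CPM. Both groups with 5 mM glucose lay below both groups with 10 mM glucose, with no library of 6 reaching the lowest of the other 6. The change of LGCAR against NG was called (log2 fold change -0.35, SE 0.0803, edgeR adjusted p = 0.0184). It was not called for LG against NG (-0.25, SE 0.0784, edgeR adjusted p = 0.124) or LGCAR against CAR (-0.27, SE 0.0799, edgeR adjusted p = 0.0936). On the opposite strand NUP62 overlaps 21.2% of the ATF5 exon length, and no source used here gives whether the counting used the strand. NUP62 itself averaged 97.4 ± 3.36 CPM in LGCAR, 94.8 ± 4.01 CPM in LG, 103 ± 1.27 CPM in CAR and 106 ± 2.64 CPM in NG (SD, n = 3 each). Its libraries separated by glucose in the same way as those of ATF5, at 90.3 to 101.0 CPM with 5 mM and 102.2 to 107.2 CPM with 10 mM. How many of all tested genes separated so in CPM was not counted, and the part of NUP62 in the ATF5 values was not tested.

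DDIT3, which encodes CHOP, the bZIP factor tied to cell death in prolonged stress, had its highest level in LG (chromosome 12, 57516588 to 57521737, minus strand). Its level was 42.59, 41.44 and 43.56 CPM in LGCAR, 50.46, 47.67 and 57.45 CPM in LG, 46.31, 41.20 and 42.95 CPM in CAR, and 39.97, 43.86 and 43.48 CPM in NG. LG stood above the 9 other libraries, and LGCAR lay within the range of CAR and NG. DDIT3 rose in LG relative to NG, by 1.22-fold (log2 fold change 0.29, SE 0.0690, edgeR adjusted p = 0.0446). That call was near the threshold and was lost without NG 1 (adjusted p = 0.146), NG 2 (0.129), NG 3 (0.117), LG 1 (0.105) or LG 3 (0.103) in the same edgeR test, with log2 fold changes of 0.20 to 0.34 over the 6 libraries left out in turn. In LGCAR against NG the log2 fold change was 0.00 (95% CI -0.15 to 0.15, edgeR adjusted p = 0.981). DDIT3 shares 27.2% of its exon length with MARS1 on the opposite strand and 8.03% with AC022506.1 on its own strand. MARS1 is the methionyl-tRNA synthetase gene and itself in the list of ATF4 targets. It averaged 143 ± 3.73 CPM in LG and 156 ± 4.98 CPM in NG (SD, n = 3 each). That difference had the opposite sign to that of DDIT3. It was not called (log2 fold change -0.12, SE 0.0440, edgeR adjusted p = 0.181). For LGCAR against NG, where DDIT3 had 0.00, MARS1 was called lower, at -0.25 (SE 0.0442, edgeR adjusted p = 0.00530). The part of MARS1 in the DDIT3 values was not tested.

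CEBPB, a C/EBP factor of differentiation and inflammation that can pair with ATF4, had both the narrowest and the widest spread between libraries (chromosome 20, 50190734 to 50192689, plus strand). The 3 libraries gave 117.1, 116.9 and 116.0 CPM in LGCAR, 130.5, 136.2 and 156.4 CPM in LG, 100.5, 62.62 and 75.76 CPM in CAR, and 131.8, 106.6 and 92.70 CPM in NG. The coefficient of variation was 0.502% in LGCAR and 24.1% in CAR, the lowest and the highest among all combinations of the 10 genes and 4 groups. All LGCAR libraries stood above all CAR libraries, but the difference of 0.55 in log2 was not called (SE 0.171, edgeR adjusted p = 0.147). LG against NG gave 0.35 (95% CI -0.02 to 0.73, edgeR adjusted p = 0.368) and CAR against NG -0.47 (95% CI -0.85 to -0.09, edgeR adjusted p = 0.894). Neither was called, and in both the groups overlapped. CEBPB-AS1 on the opposite strand, which overlaps 11.8% of the exon length, averaged 0.829 CPM in LGCAR, 1.03 CPM in LG, 0.937 CPM in CAR and 0.886 CPM in NG.

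CEBPG, a C/EBP protein without an activation domain of its own that serves as a partner of ATF4, was called in no comparison (chromosome 19, 33373330 to 33382686, plus strand). It averaged 66.2 ± 3.81 CPM in LGCAR, 69.0 ± 3.09 CPM in LG, 71.2 ± 1.93 CPM in CAR and 72.6 ± 1.92 CPM in NG (SD, n = 3 each). The LGCAR libraries, at 67.84, 68.84 and 61.81 CPM, were all below the NG libraries, at 74.10, 70.45 and 73.32 CPM. The log2 fold change in LGCAR against NG was -0.13 (95% CI -0.25 to -0.02, edgeR adjusted p = 0.122).

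TRIB3, a pseudokinase induced by ATF4 and DDIT3 that binds both ATF4 and the kinase AKT, lies on chromosome 20 (362835 to 397559, plus strand). LGCAR held 91.66, 87.77 and 93.67 CPM, LG 96.14, 99.13 and 111.4 CPM, CAR 107.7, 95.32 and 100.2 CPM, and NG 106.1, 106.3 and 110.9 CPM. Every LGCAR library was below every library of the other groups, and LG and CAR reached into the range of NG or beyond it. In LGCAR against NG TRIB3 fell by 1.18-fold (log2 fold change -0.24, SE 0.0612, edgeR adjusted p = 0.0266). In LGCAR against LG and against CAR the log2 fold changes were -0.17 and -0.15, neither of them called (edgeR adjusted p = 0.380 and 0.208).

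PPP1R15A encodes GADD34, the subunit that brings protein phosphatase 1 to eIF2 and so ends the response (chromosome 19, 48872392 to 48876057, plus strand). Its values were 225.5, 236.7 and 220.8 CPM in LGCAR, 288.0, 275.8 and 324.2 CPM in LG, 273.5, 245.6 and 261.2 CPM in CAR, and 275.4, 263.2 and 279.4 CPM in NG. LGCAR was the lowest group and did not overlap with any other, and LG had the highest mean. Relative to NG it fell in LGCAR by 1.20-fold (log2 fold change -0.26, SE 0.0603, edgeR adjusted p = 0.0196). Relative to LG the log2 fold change was larger, -0.38 (SE 0.0603), with the second smallest p of 15104 genes but an adjusted p of 0.0722 by edgeR, so it was not called. Without LG 2 that adjusted p was 0.0406, and with the other libraries of the comparison left out in turn it lay between 0.149 and 0.569.

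CHAC1, an enzyme that degrades glutathione and a late target of ATF4, was the least abundant member (chromosome 15, 40952962 to 40956519, plus strand). It was at 11.84, 8.76 and 8.46 CPM in LGCAR, 12.84, 10.35 and 16.62 CPM in LG, 14.09, 12.75 and 12.92 CPM in CAR, and 14.41, 14.22 and 14.03 CPM in NG. NG was tight, and the spread of LG covered the whole range of CAR and NG. CHAC1 fell in LGCAR against NG by 1.46-fold (log2 fold change -0.55, SE 0.153, edgeR adjusted p = 0.0417), the largest change of the 10 in that comparison and the one nearest to the threshold.

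GDF15, a secreted cytokine of the TGF-beta superfamily induced by ATF4, DDIT3 and p53, was likewise highest in LG (chromosome 19, 18374731 to 18389176, plus strand). The level was 33.26, 37.62 and 34.15 CPM in LGCAR, 47.11, 46.54 and 61.46 CPM in LG, 36.78, 27.93 and 28.91 CPM in CAR, and 40.06, 34.28 and 36.21 CPM in NG. All LG libraries exceeded the 9 others, and LGCAR overlapped with both CAR and NG. The log2 fold change in LG against NG was 0.49 (SE 0.122, edgeR adjusted p = 0.0736) and was not called. In LGCAR against LG it was -0.56 (SE 0.124, edgeR adjusted p = 0.294), also not called. Leaving out LG 3, the highest library, gave 0.34 for LG against NG and -0.42 for LGCAR against LG. Of the genes that GDF15 signals through, its receptor GFRAL had 0 counts in all libraries and the coreceptor RET at most 1, while FURIN, a protease that cleaves the GDF15 precursor, averaged 86.5 ± 2.26 CPM in LGCAR, 84.3 ± 2.82 CPM in LG, 84.9 ± 1.20 CPM in CAR and 80.0 ± 3.57 CPM in NG (SD, n = 3 each).

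The comparison of LGCAR with NG, which combines low glucose and the inhibitor, thus held most of the calls, and leaving out 1 library changed both their number and that over all genes. Of the 6 calls 5 were made when NG 1 was left out, 3 when NG 2 was, 1 when NG 3 was, 2 when LGCAR 1 or LGCAR 3 was and 4 when LGCAR 2 was, all of them lower in LGCAR. Over all tested genes 1322 calls were made with every library. Dropping NG 1 gave 1544, NG 2 gave 293 and NG 3 gave 136, while dropping LGCAR 1 gave 197, LGCAR 2 gave 324 and LGCAR 3 gave 335. ATF4 was called each time, with edgeR adjusted p-values of 0.00829 to 0.0391. ATF3 lost its call without NG 3 (edgeR adjusted p = 0.0660) and without LGCAR 1 (0.0565). ATF5 lost it without NG 2, NG 3, LGCAR 1 or LGCAR 3, at edgeR adjusted p-values of 0.0575 to 0.0799. TRIB3 lost it without NG 2, NG 3 or any LGCAR library (0.0622 to 0.126), CHAC1 without any NG library, LGCAR 2 or LGCAR 3 (0.0663 to 0.144), and PPP1R15A without NG 3, LGCAR 1 or LGCAR 3 (0.0792 to 0.0956). The share of ribosomal RNA was highest in NG 1 and LGCAR 3. Without both, ATF4 and ATF3 were the 2 regulators called, and calls over all tested genes fell from 1322 to 263. With that share as a covariate 5 of the 6 were called, all but CHAC1 (edgeR adjusted p = 0.0580), among 1086 genes in all.

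**Figure D2:**
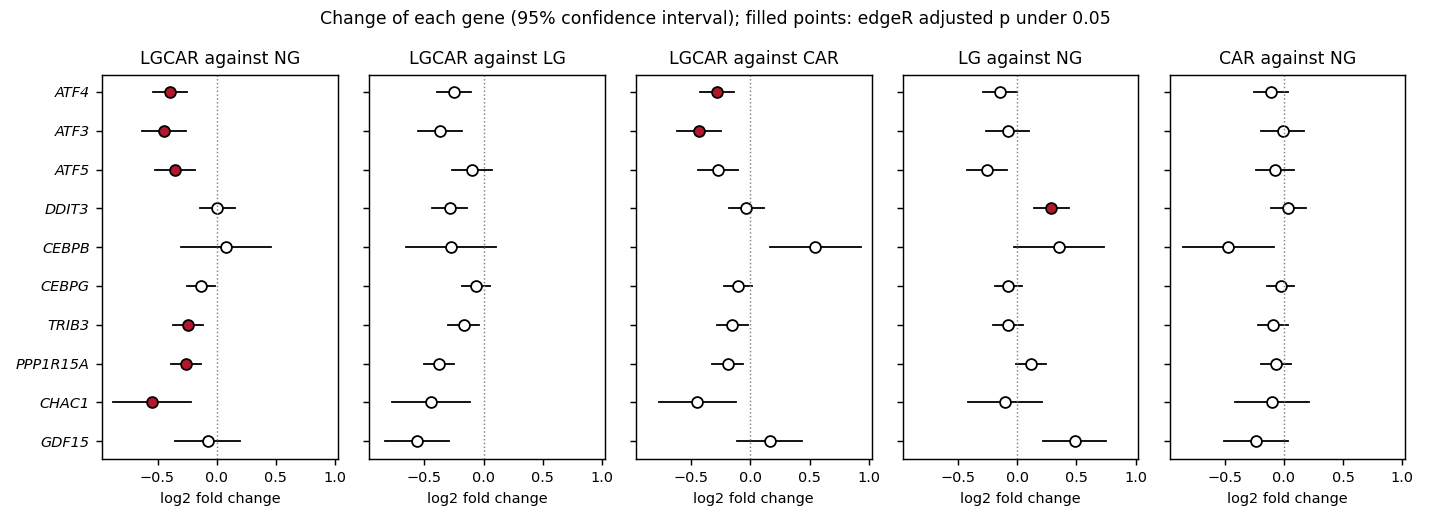
Log2 fold change of the 10 genes (points) with 95% confidence intervals (lines) in 5 comparisons, the group named first over the second; filled points have an edgeR adjusted p under 0.05. Filled points appear for 6 genes in LGCAR against NG, 2 in LGCAR against CAR and 1 in LG against NG, and for none in the other panels.

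The comparison of LGCAR with LG asks what the inhibitor changed at 5 mM glucose. None of the 10 was called by edgeR, where 0.00662% of all tested genes (1 gene) were called. All 10 log2 fold changes were below 0, from -0.56 for GDF15 to -0.06 for CEBPG, with a median of -0.28 against 0.00 over all tested genes. Among the gene lists described further below, the immediate early genes had a similar median, -0.29. The median was -0.13 for other stress targets of ATF4 and DDIT3, -0.09 for the ATF6 and XBP1 arms and -0.07 for amino acid targets of ATF4. It was -0.06 for other bZIP factors, -0.03 for the eIF2 list and -0.01 for p53 targets. The LGCAR libraries lay wholly below the LG libraries for 7 of the 10, an arrangement found in 10.5% of all tested genes, and above them for none (10.9%). Of the 10, 7 had an unadjusted p under 0.05, against 11.9% of all tested genes. DESeq2 called 2 of them lower, PPP1R15A (DESeq2 adjusted p = 4.61e-05) and GDF15 (DESeq2 adjusted p = 0.00393), among 20 genes in all. Without LG 3, the highest LG library for 9 of the 10, all log2 fold changes were closer to 0 except that of ATF5 (-0.11), with -0.26 for CHAC1 against -0.45 with every library and -0.10 for TRIB3 against -0.17. The edgeR adjusted p-values without LG 3 were 0.214 for PPP1R15A, 0.771 for GDF15 and 0.939 to 0.963 for the other 8.

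At 10 mM glucose, CAR against NG, the same inhibitor gave 9 log2 fold changes below 0 and 1 above, with a median of -0.08 (ATF3 and CEBPG were above 0 with library totals as the only scaling), and the groups overlapped for all 10 where 9.11% of all tested genes did not overlap. The edgeR test called none of them, and CEBPB alone had an unadjusted p under 0.05, against 4.53% of all tested genes (684 genes). DESeq2 called none of the 10 and 2 genes in all. The difference between the effect of cariporide at 5 mM and that at 10 mM was tested as an interaction and was called for none of the 10, where 0.00662% of all tested genes were called. PPP1R15A (log2 difference -0.31), DDIT3 (-0.32) and ATF3 (-0.35) had an unadjusted p under 0.05, against 3.13% of all tested genes, and each had an edgeR adjusted p of 0.9999. A difference of the effect of cariporide between the 2 glucose levels was therefore not shown for any regulator. The comparisons share libraries and are not independent of each other.

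Lower glucose in the presence of the inhibitor, LGCAR against CAR, gave calls for ATF3 and ATF4, both lower, where 0.675% of all tested genes were called lower and 0.973% higher. LGCAR was wholly below CAR for 7 of the 10 (11.9% of all tested genes) and wholly above it for CEBPB (13.4% of all tested genes), while DDIT3 and GDF15 overlapped. Here too the calls fell in number with a library left out, over all tested genes to between 51 and 188, against 249 with every library. ATF4 lost its call with any of the 6 libraries left out (edgeR adjusted p = 0.0537 to 0.163), and ATF3 lost it without CAR 3 or any LGCAR library (0.0767 to 0.0962). With the ribosomal RNA share as a covariate neither was called, the log2 fold changes were -0.16 for ATF4 and -0.30 for ATF3, and 18 genes were called in all, against 249 without the covariate. Of those 249 genes 59.0% were higher in LGCAR, against 26.8% of the calls with library totals as the only scaling, and of the 261 genes called in LG against NG 57.9% were higher in LG, against 69.5% with that scaling.

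DDIT3, GDF15 and CEBPB were also set against ATF4 within each library, a description chosen after the values were seen and given with no test. The ratio of DDIT3 counts to ATF4 counts was 0.205, 0.199 and 0.206 in LGCAR, 0.215, 0.201 and 0.209 in LG, 0.166, 0.169 and 0.178 in CAR, and 0.151, 0.163 and 0.149 in NG. It was thus 0.199 to 0.215 in the 6 libraries with 5 mM glucose and 0.149 to 0.178 in the 6 with 10 mM glucose, without overlap. GDF15 over ATF4 likewise separated at 0.160 to 0.223 with 5 mM and 0.115 to 0.151 with 10 mM, and CEBPB over ATF4 at 0.548 to 0.574 with 5 mM and 0.258 to 0.497 with 10 mM. Of the 9 other regulators these 3 were higher at 5 mM in every library, none was lower and 6 overlapped, where 6.73% of all tested genes were higher in every library and 0.0662% lower. Among those that overlapped, TRIB3 ran from 0.405 to 0.443 at 5 mM and from 0.381 to 0.416 at 10 mM, and PPP1R15A from 1.04 to 1.23 at 5 mM and from 0.958 to 1.08 at 10 mM. The ratio needs no scaling between libraries, and a ratio can differ through either gene.

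**Figure D3:**
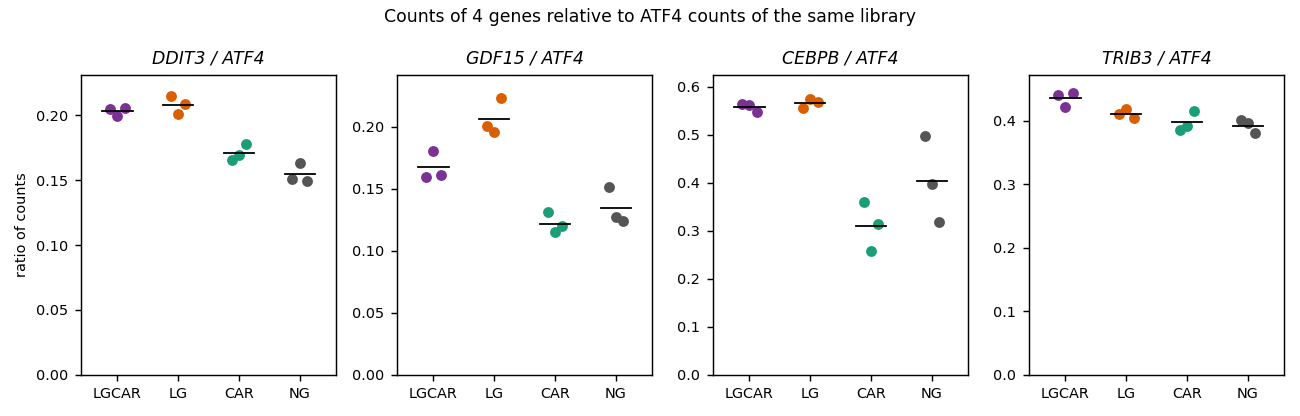
Counts of DDIT3, GDF15, CEBPB and TRIB3 divided by ATF4 counts of the same library (points; the bar is the mean of 3 libraries), for LGCAR, LG, CAR and NG from left to right. DDIT3 over ATF4 was 0.199 to 0.215 in the 6 libraries of LGCAR and LG and 0.149 to 0.178 in the 6 of CAR and NG, while TRIB3 over ATF4 overlapped.

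Genes around the 10 regulators were read from lists, to be set beside the shares of all tested genes called lower and higher, which were 4.12% and 4.63% in LGCAR against NG, 0.728% and 1.0% in LG against NG, and 0.675% and 0.973% in LGCAR against CAR. Among 32 tested amino acid targets of ATF4 (synthesis enzymes, transporters and tRNA synthetases), 17 (53.1%) fell in LGCAR against NG and none rose, with a median log2 fold change of -0.21. SLC3A2, the heavy chain of the cystine and leucine transporters, was at 229 ± 2.70 CPM in LGCAR and 319 ± 10.8 CPM in NG, and ASNS, asparagine synthetase, at 100.5 ± 0.522 CPM in LGCAR and 128 ± 4.38 CPM in NG (SD, n = 3 each). Their log2 fold changes were -0.48 for SLC3A2 (edgeR adjusted p = 0.000182) and -0.35 for ASNS (edgeR adjusted p = 0.00158). In LG against NG 6 of the 32 (18.8%) fell and none rose, with SLC6A9, a glycine transporter, at -0.38 and SLC3A2 at -0.31. In LGCAR against CAR 5 (15.6%) fell and none rose, SLC3A2 and ASNS having the smallest p.

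Of 20 tested other stress targets of ATF4 and DDIT3, 8 fell and 3 rose in LGCAR against NG, with a median of -0.18. VEGFA, the angiogenic growth factor, had a log2 fold change of -0.37 and EIF4EBP1, an inhibitor of cap-dependent translation, one of -0.42. BBC3, which encodes the death protein PUMA, was the 1 gene of this list that rose in LG against NG (log2 fold change 0.48, edgeR adjusted p = 0.00467), at 15.5 ± 0.670 CPM in LG and 11.1 ± 0.744 CPM in NG (SD, n = 3 each). VLDLR, a lipoprotein receptor, was 1 of the 2 that fell there, with -0.30. In LGCAR against CAR VEGFA fell (-0.36) and BCL2L11, which encodes the death protein BIM, rose (0.29).

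Genes of the other arms of the unfolded protein response were called lower as well. Among 19 tested genes of the ATF6 and XBP1 arms, 12 fell in LGCAR against NG and none rose, with a median of -0.24. HSPA5, the chaperone BiP of the endoplasmic reticulum, was at 3701 ± 26.5 CPM in LGCAR and 4746 ± 208 CPM in NG (SD, n = 3 each), with a log2 fold change of -0.36, and HYOU1, another chaperone there, had -0.30. In LG against NG 3 of the 19 fell, HYOU1 and the cochaperone gene DNAJB9 at -0.24 each among them, and in LGCAR against CAR 5 fell.

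The step above ATF4 was read from 22 genes for the eIF2 kinases, eIF2, eIF2B and the phosphatase subunits. In LGCAR against NG 2 of them fell (9.09%, against 4.12% of all tested genes), the eIF2 subunits EIF2S2 (-0.23) and EIF2S1 (-0.15), and none was called in LG against NG or LGCAR against CAR. Among 26 other bZIP factors 4 fell and 1 rose in LGCAR against NG, with FOS (-1.42) and NFIL3 (-0.29) having the smallest p. FOS, an immediate early gene that dimerizes with JUN, averaged 6.34 ± 0.391 CPM in LGCAR, 9.43 ± 0.571 CPM in LG, 14.3 ± 1.85 CPM in CAR and 17.0 ± 1.999 CPM in NG (SD, n = 3 each). In LG against NG FOS fell (-0.85) and FOSL2 rose (0.22), and in LGCAR against CAR FOS was the 1 called gene.

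As GDF15 and ATF3 also answer to p53 and to growth signals, 16 p53 targets and 14 tested immediate early genes were read as well. Of the p53 targets 2 (12.5%, against 4.12% of all tested genes) fell in LGCAR against NG, AEN (-0.34) and CDKN1A (-0.27), none was called in LG against NG, and 2 fell in LGCAR against CAR. Of the immediate early genes 3 (21.4%) fell in LGCAR against NG, FOS and FOSB (-1.11) with the smallest p, and none rose. In LG against NG 3 rose, KLF6 at 0.22 among them, and FOS fell, while in LGCAR against CAR 4 fell, FOS and IER2 with the smallest p. No gene of these 7 lists was called in CAR against NG, in LGCAR against LG or in the interaction.

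**Figure D4:**
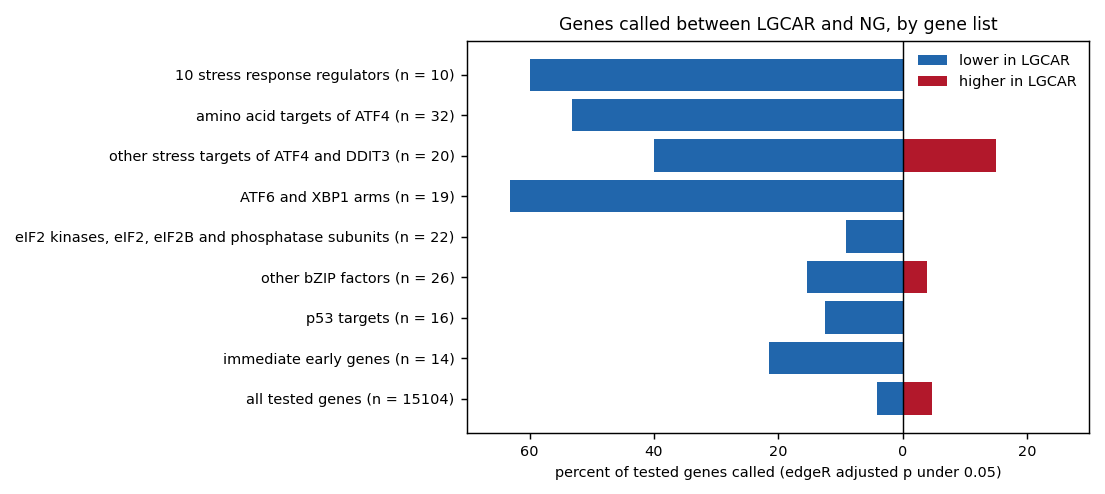
Percent of the tested genes of each list called lower (left of 0) or higher (right of 0) in LGCAR than in NG by edgeR, for the 10 regulators, 7 related lists and all tested genes (bottom). The bars to the left are longest for the ATF6 and XBP1 arms (12 of 19), the 10 regulators (6 of 10) and the amino acid targets of ATF4 (17 of 32), and 4.12% of all tested genes were lower.

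Genes with the pattern closest to ATF4 were found by the root mean square difference of the 3 log2 fold changes against NG. The 10820 genes compared were tested genes with a mean of 5 CPM or more whose symbol was not a locus number. Closest to ATF4 were HAX1 (0.0102), SFTA1P (0.0190), PMS2CL (0.0220), POLR3G (0.0223) and ASB2 (0.0321), and none of the regulators was among these 5. Closest to DDIT3 were HLA-DMB (0.0324), ZFP36 (0.0326), C11orf80 (0.0343), PSG1 (0.0345) and PGAP3 (0.0364). ZFP36 is itself in the list of immediate early genes, and with 3 values for each gene a small difference says little of a shared course.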

How the data were processed

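The values used were the counts for each gene symbol that the authors deposited as 1 table for each of the 12 libraries. Per the labels' protocols, libraries were made with a NEBNext Ultra II Directional kit from RNA isolated in Trizol. The submitters' processing notes name STAR, Salmon, fastp, GATK and the build GRCh38. Which tool made the counts, and whether it used the strand, is not given in the sources. Here the counts were scaled by TMM, filtered with filterByExpr (15104 genes kept) and fitted over all 12 libraries with 1 mean for each group with edgeR 4.0.16 (quasi-likelihood test, robust) under R 4.3.3. A 95% interval came from the SE and its degrees of freedom. The 10 genes, the comparisons and the 11 lists (185 entries) were chosen with earlier results of these data known. All 10 regulators were named; of other lists up to 2 called genes with the smallest p were named. A few listed genes are not reported here. Alternatives used DESeq2 1.42.0 and limma-voom (limma 3.58.1), other scalings and filters, the compared groups alone, a replicate block, the ribosomal RNA share and each library left out. The test was checked on simulated counts drawn with the common dispersion for every gene. To pass, it had to recover changes larger than those of the regulators and keep false calls few. The check therefore says little of changes as small as theirs. Exon lengths and overlaps came from GENCODE 29 and promoters from RefSeq GRCh38.p14. Figures were drawn with matplotlib 3.10.9 in Python 3.11.15. Libraries of a group differed by more than counting error (for the 12 pairs, chi-square over its degrees of freedom was 2.79 to 23.8). The common biological coefficient of variation was 6.94%.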

Additional observations from a re-analysis of the deposited data

How the results depend on the processing

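Over 17 alternatives for each regulator and pairwise comparison and 22 for the interaction (1070 values), 973 kept their direction and their side of the threshold, 52 lost a call, 11 gained one and 34 changed sign, and the causes were not tested. The number of the 10 regulators called, with each library left out in turn, was 1 to 5 in LGCAR against NG (6 with all libraries), 0 to 1 in LGCAR against LG (0), 0 to 1 in LGCAR against CAR (2), 0 to 1 in LG against NG (1), and 0 to 0 in CAR against NG and in the interaction. The number called over all tested genes was 136 to 1544 in LGCAR against NG (1322 with all libraries), 1 to 3 in LGCAR against LG (1), 51 to 188 in LGCAR against CAR (249), 83 to 364 in LG against NG (261), 0 to 2 in CAR against NG (0) and 1 to 3 in the interaction (1). The number of regulators called in other settings is given with that over all genes in parentheses. In LGCAR against NG it was 2 without NG 1 and LGCAR 3 (263). In LGCAR against LG it was 2 with no filter (15) and 2 with DESeq2 (20). In LGCAR against CAR it was 4 with no filter (391) and 1 with limma-voom (208). It was 0 there with the ribosomal RNA share as a covariate (18) and 0 without NG 1 and LGCAR 3 (55). In LG against NG it was 2, DDIT3 and GDF15, with a mean of at least 5 CPM (299) and with DESeq2 (380). It was 0 there with limma-voom (225), with the groups compared alone (118), with ribosomal RNA genes left out (267) and without NG 1 and LGCAR 3 (87).

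Libraries with the same replicate number did not deviate together: 2 of 18 correlations of their deviations were over 0.1 (range -0.11 to 0.14), and 7 of 18 were best with the same number. With the replicate number as a block, 5 regulators were called in LGCAR against NG, 1 in LGCAR against CAR and 0 in LG against NG, and among all genes 682, 135 and 147 were called, against 1322, 249 and 261 without the block.

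Log2 fold changes that changed sign were these. DDIT3 in LGCAR against NG was 0.0032 as reported, -0.0055 with RLE size factors, -0.0099 with library totals as the only scaling, -0.012 with no filter, -0.0055 with DESeq2, -0.0058 with the groups compared alone, -0.0078 with ribosomal RNA genes left out, -0.068 without NG 1 and LGCAR 3, and -0.050 to 0.021 with each library left out. With library totals ATF3 was 0.026 and CEBPG 0.0099 in CAR against NG. With the ribosomal RNA share as a covariate DDIT3 was -0.038 in CAR against NG and 0.076 in LGCAR against CAR, and the interaction was 0.029 for ATF4, 0.077 for ATF5, 0.022 for CEBPG and 0.030 for TRIB3. Without NG 1 and LGCAR 3 DDIT3 was -0.013 in CAR against NG, and the interaction was 0.068 for ATF5 and 0.0055 for CEBPG. With each library left out in turn, ATF3 ran from -0.069 to 0.051 and DDIT3 from -0.013 to 0.072 in CAR against NG, CHAC1 from -0.30 to 0.047 in LG against NG, CEBPB from -0.032 to 0.22 in LGCAR against NG and DDIT3 from -0.070 to 0.015 in LGCAR against CAR. The interaction ran from -0.093 to 0.053 for ATF5 and from -0.080 to 0.013 for CEBPG.

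The lowest count of a regulator in a library was 156 (CHAC1), where counting error adds to the spread between libraries.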
